A study of Drosophila melanogaster with 6 samples.

Results

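Thioredoxin reductase, the glutathione-synthesis enzyme glutamate-cysteine ligase, superoxide dismutase, catalase and a peroxiredoxin, together with the transcription factor gene cnc and its inhibitor gene Keap1, were followed in fruit fly heads. The genes set out for measurement were Sod1, Sod2, Cat, Jafrac1, Gclc, Gclm, Trxr1, cnc and Keap1, and their members were the probe sets that the platform annotation assigns to exactly 1 of these 9 genes. This gave 10 probe sets of 13966 on the array, for 7 of the 9 genes: 4 for cnc and 1 each for Sod2, Cat, Gclc, Gclm, Trxr1 and Keap1. Sod1 and Jafrac1 had no single-gene probe set under this rule and were not analysed here. Transcripts were measured on 6 arrays of the Affymetrix DrosGenome1 design, 3 hybridised with RNA of wild type heads and 3 with RNA of heads that combine the driver Tim-gal4 with UAS-MJD, below called tim-MJD. The driver switches the transgene on through the timeless promoter, which is active in clock cells, and MJD names the protein of Machado-Joseph disease, a polyglutamine disorder. The labels give a repeat length of 78 for tim-MJD 1 and 2 and none for tim-MJD 3, and they name the CS strain for wild type 1 and 3 and none for wild type 2. In both groups the flies were young, aged 2 to 4 days, had spent 3 days in light-dark cycles and were sampled at Zeitgeber time 16. Flies with the driver alone or with the transgene alone were not analysed here, so the effects of driver, transgene and strain cannot be told apart. The transgene's own transcript was not analysed here.

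Cells remove superoxide by way of superoxide dismutase and the resulting hydrogen peroxide by way of catalase and peroxidases. Flies have no glutathione reductase, so Trxr1 and thioredoxin keep both the thioredoxin and the glutathione pool reduced, with NADPH as the source of electrons. CncC, the long protein of the cnc gene and the fly relative of mammalian Nrf2, switches on many antioxidant and detoxification genes, while Keap1 binds CncC and holds it in check.

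Values are given as deposited intensity, in arbitrary units, or as a level, which is log2 of the intensity plus 16 after quantile normalization between arrays. A difference is the mean level of tim-MJD minus that of wild type, in log2 units, with its standard error (SE) or 95% confidence interval from limma. A probe set passed when its Benjamini-Hochberg adjusted p was under 0.05 over the 8379 probe sets tested. The base behind the deposited values is not known. Should log2 summaries have been raised to powers of e, the difference of a bright probe set shrinks to that of the natural logarithm, which for Trxr1 was 1.44 in place of 2.08. The labels do not say whether replicates were separate fly collections, so p-values measure the spread between these arrays, which may be technical. The number of arrays limits the precision.

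The arrays differed in more than genotype. Each group was scanned on a day of its own, so scan day and genotype cannot be told apart. The middle probe set of 18S ribosomal RNA read 12.7 (log2 intensity) on wild type 1, 12.0 on wild type 2 and 16.7 to 17.4 on the other 4 arrays, and the 3′ to 5′ difference of eIF-4a was 9.63 log2 units on wild type 2 and 2.57 to 3.71 elsewhere. Both photoreceptor markers with a probe set, Arr2 and trp, read above the negative controls on all arrays. The summed intensity of the fat body markers was 1.414e+06 to 3.853e+06 in wild type and 32534 to 1.406e+06 in tim-MJD, where tim-MJD 2 was the lowest and the nearest values of the groups almost touched. Of the 5 fat body markers with a probe set 4 read above the controls on all arrays and Fbp1 on none. The yolk protein genes Yp1 and Yp2 make up most of the fat body sum on every array. Lsp2 and apolpp were lower on every tim-MJD array than on any wild type array, while in level Yp1, Yp2 and Fbp1 did not separate the groups. The summed glial markers ran from 7478 to 19565 in wild type and from 3468 to 6179 in tim-MJD, with Gs2, which makes up most of the sum, and nrv2 above the controls on all arrays, the defining marker repo on 1 and moody on 2. Of these 4 Gs2 separated the groups, repo, nrv2 and moody overlapped, and moody had a positive difference of 0.50. On no wild type array did moody exceed the controls, and it cleared the filter on dim probe sets through its tim-MJD values. The sums of neuronal, photoreceptor, hemocyte and muscle markers overlapped between the groups, but single markers went opposite ways. Among neuronal markers nSyb was higher in level on every tim-MJD array (difference 1.63), while Rdl gave -1.63 with overlap, and elav and brp overlapped. Of the hemocyte markers NimC1 (-0.27) and PPO2 (0.51) separated the groups in level, as did up (0.55) in muscle. None of these markers had an adjusted p under 0.05 in limma.

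Trxr1 was the only member that passed. Of the 10 member probe sets 9 cleared the filter on dim probe sets and were tested, 1 rose in tim-MJD, 0 fell and 8 did not pass in limma, and an unadjusted p under 0.05 was found for 2, beside 15.6% (1311) of all 8379 probe sets. Over all tested probe sets 2.48% passed, 1.54% higher and 0.943% lower in tim-MJD. The groups did not overlap for 2 of the 9, Trxr1 and Gclm, and for 21.9% of all probe sets tested, so the members separated about as often as the array as a whole. The median difference of the 9 was 0.017, beside -0.0026 for all tested probe sets.

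**Figure D1:**
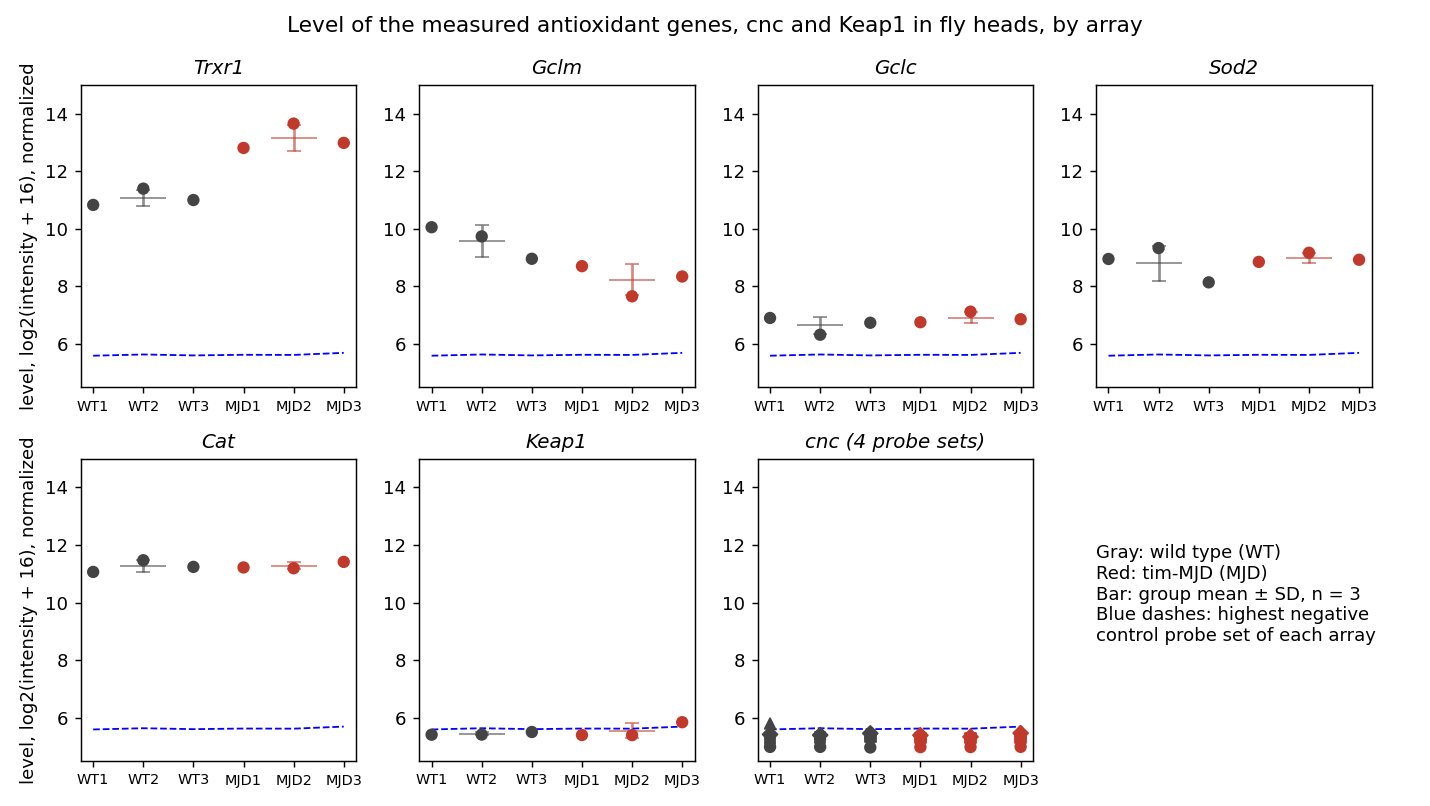
Level (log2 of intensity plus 16, quantile normalized) of each measured member on each of the 6 arrays, with wild type in gray and tim-MJD in red. Horizontal bars show the group mean with its SD (n = 3), and the dashed line shows the highest negative control probe set of the array. All tim-MJD values of Trxr1 lie above all wild type values, those of Gclm lie below them, and cnc and Keap1 lie at the level of the controls.

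The reductase at the head of the thioredoxin system was raised in tim-MJD heads. Trxr1 read 2117, 3134 and 1830 (deposited intensity) on wild type 1 to 3 and 7248, 13269 and 7027 on tim-MJD 1 to 3. Every tim-MJD array lay above every wild type array, and tim-MJD 2 stood highest. The level went from 11.08 ± 0.29 to 13.15 ± 0.45 (SD, n = 3), a rise of 2.08 ± 0.27 (SE; limma, adjusted p = 0.0268), with a confidence interval from 1.40 to 2.75. It was the 97th largest rise of 8379. The difference was positive in all 20 alternatives and passed in 10 of them, with adjusted p from 0.0127 to 0.373. The call was lost without wild type 1 (adjusted p = 0.0913), wild type 2 (0.0570), wild type 3 (0.0782) or tim-MJD 3 (0.0832), and held without tim-MJD 1 (0.0417) or tim-MJD 2 (0.0333). Over all 6 such fits the size lay between 1.82 and 2.25. The call was also lost with a covariate for the 18S signal (0.170) or for the 3′ to 5′ difference (0.0704), with no filter (0.0764) and with median centring (0.0916). Fluidics modules 1 and 2 each washed 1 array of either group, and the difference within them was 1.41 and 2.66. A fit with the module as a block gave 2.04 (adjusted p = 0.373). In that limma fit 0 of 8379 probe sets passed and 980 had an unadjusted p under 0.05. Without the 2 wild type arrays of low 18S signal, a setting chosen after seeing the data, the difference was 2.15 (adjusted p = 0.223). The summed fat body intensity, mostly Yp1 and Yp2, and the summed glial intensity, mostly Gs2, were lower in tim-MJD. Singly, Lsp2, apolpp, Gs2 and NimC1 were lower in level too, and nSyb, PPO2 and up were higher. The part of all these in the Trxr1 result was not tested. In whole heads a change in RNA per cell cannot be told apart from a change in the number of cells of a type.

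The subunits of glutamate-cysteine ligase, which makes the first and rate-limiting step of glutathione synthesis, gave different values. Gclm, the modifier subunit, which raises the efficiency of the catalytic one, read 1177, 985 and 436 (deposited intensity) in wild type and 394, 184 and 253 in tim-MJD. The groups did not overlap, but wild type 3 lay closer to tim-MJD 1 than to the other wild type arrays. The level was 9.58 ± 0.56 in wild type and 8.23 ± 0.53 in tim-MJD (SD, n = 3), a difference of -1.35 ± 0.39 (SE) with an interval from -2.33 to -0.37. It did not pass after adjustment over all probe sets (limma, unadjusted p = 0.0156, adjusted p = 0.170), nor under any of 20 alternatives, in all of which it was negative. Module 1 gave a difference of -1.03, module 2 gave -1.30, and the fit with modules as blocks gave -1.17. The 2 arrays of low 18S signal were the 2 with the highest Gclm values. With the 18S signal as a covariate the difference was -0.72 (adjusted p = 0.733), and without those arrays -0.73 (adjusted p = 0.753).

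Gclc, the catalytic subunit, read 110, 64.03 and 89.8 in wild type and 89.1, 123 and 94.4 in tim-MJD, which is 1.96 to 3.86 times the highest negative control of the array. The groups overlapped, with wild type 2 the lowest and tim-MJD 2 the highest array. The difference was 0.26 (interval -0.20 to 0.72; limma, adjusted p = 0.604). The interval leaves room for a modest change in either direction. The difference between the changes of Gclm and Gclc was not tested.

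Superoxide dismutase and catalase did not pass. Sod2, the manganese enzyme of mitochondria, read 573, 723 and 248 in wild type and 435, 578 and 382 in tim-MJD, so all 3 tim-MJD arrays lay inside the range of wild type. Its difference was 0.17 (interval -0.62 to 0.97; limma, adjusted p = 0.874). The wide interval came with a spread of 1.19 log2 units between wild type 2 and 3. Within fluidics modules 1 and 2 the difference was -0.48 and 1.03, opposite in sign. With the 18S signal as a covariate it was 0.92 (adjusted p = 0.171), and without wild type 1 and 2 it was 0.84 (adjusted p = 0.226).

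Cat, the catalase that breaks down hydrogen peroxide, read 2507, 3225 and 2258 in wild type and 2270, 2260 and 2226 in tim-MJD. The levels were 11.26 ± 0.20 and 11.28 ± 0.12 (SD, n = 3), a difference of 0.017 with an interval from -0.30 to 0.34 (limma, adjusted p = 0.976). Cat had the smallest SE (0.13) of the members above the controls. Its difference was positive in 14 of 20 alternatives, ran from -0.25 to 0.17 over them and passed in 0.

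The transcription factor and its inhibitor were not measurable at this signal. The 4 cnc probe sets read between 14.6 and 37.2 over the 6 arrays, where the highest negative control lay between 29.8 and 39.1. Of their 24 values 1 lay above the control of its array, that of the brightest cnc probe set on wild type 1 (37.2). The other 3 probe sets lay below it on all arrays, at 0.440 to 0.855 times that control. The differences of the 3 tested probe sets were -0.13, -0.028 and -0.0039 (limma, adjusted p of 0.676 or more), and the remaining one was left out by the filter. The cnc gene makes several proteins from different starts, and the annotation does not say which of them a probe set detects, so no value can be tied to CncC.

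Keap1, the adaptor that hands CncC to a Cul3 ubiquitin ligase, read 24.4, 25.7 and 31.7 in wild type and 25.5, 25.0 and 44.9 in tim-MJD. It exceeded the highest negative control on tim-MJD 3 and on no other array. The difference was 0.10 (interval -0.25 to 0.45; limma, adjusted p = 0.808), and without tim-MJD 3 it was -0.046. For 3 of the 4 cnc probe sets the log2 intensity followed the mean of the negative controls over the 6 arrays (Pearson's r = 0.987, 0.986 and 0.945), as did Keap1 (r = 0.924), and for the brightest cnc probe set it did not (r = 0.052). A change of cnc or Keap1 transcripts was not detectable at this signal.

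**Figure D2:**
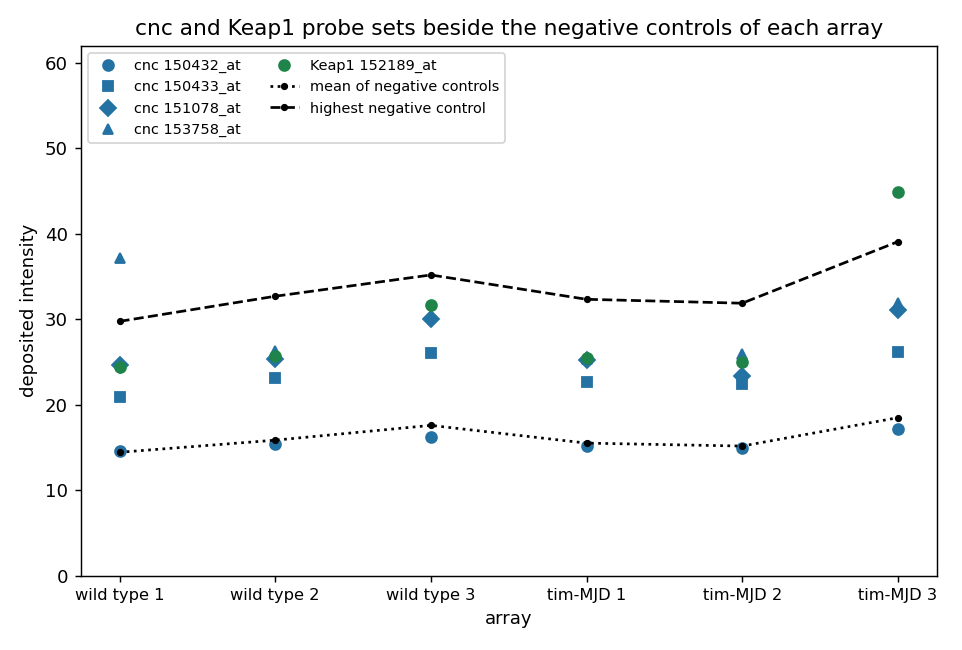
Deposited intensity (arbitrary units, linear axis from 0) of the 4 cnc probe sets and the Keap1 probe set on each array, beside the mean (dotted) and the highest (dashed) of 23 negative control probe sets. A single cnc value (37.2, wild type 1) and a single Keap1 value (44.9, tim-MJD 3) lie above the dashed line.

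The tested genes whose levels followed the brightest cnc probe set most closely over the 6 arrays were Snx16 (r = 0.996), AkhR (0.994) and nAChRalpha2 (0.994), which read above the controls on 0, 2 and 1 of the arrays. Those closest to Keap1 were Zaf1 (0.999), CG4069 (0.998) and mex1 (0.998), which did so on 6, 1 and 6 arrays. With 6 arrays and 8379 probe sets these likenesses describe the arrays and carry no test.

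Genes of the same pathways were taken from 4 lists, each gene by its brightest probe set. Of 37 genes with a probe set 32 were tested, 2 rose, 0 fell and 30 did not pass in limma. Over all probe sets tested 1.54% rose and 0.943% fell. Before adjustment 13 of the 32 reached a p under 0.05, beside 15.6% of all probe sets. GstD5 and Cyp6a2 were among the 32 and cleared the filter through their tim-MJD values, so no median is given. The groups did not overlap for 15 of the 32, beside the 21.9% given above for all probe sets. GstD5 is counted in these 15. GstD2, which did not exceed the controls on any wild type array, is counted in the 15 and in the 13. The lists were chosen with results of these data known, so the counts describe them and no list was tested as a whole. The part of the differing markers and of the 18S signal given above in these differences was not tested.

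**Figure D3:**
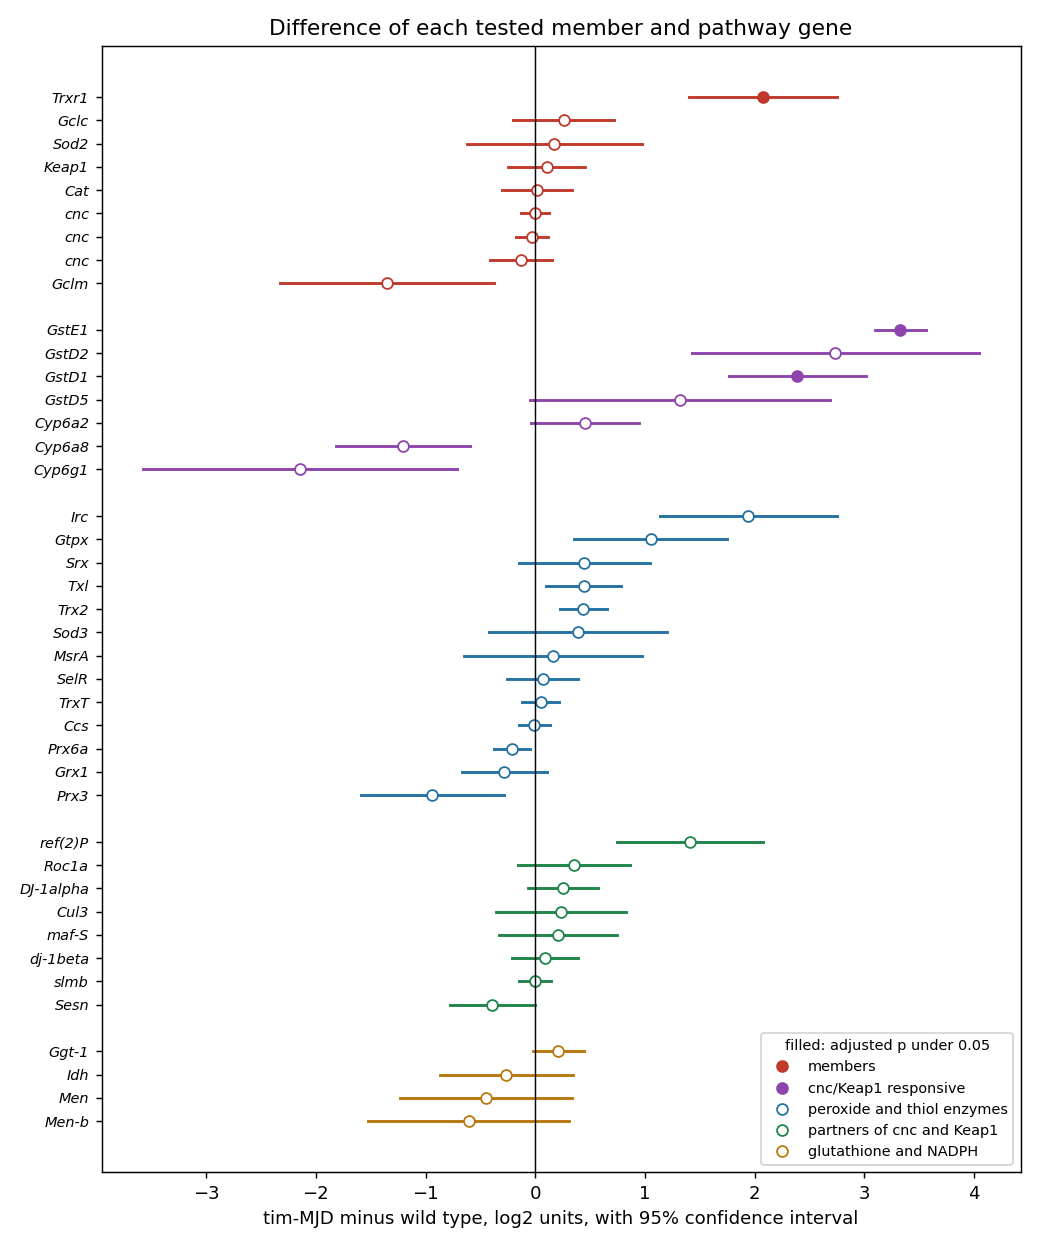
Difference between tim-MJD and wild type (log2 units) with its 95% confidence interval for the 9 tested member probe sets and the 32 tested pathway genes, grouped by list. Filled points passed an adjusted p of 0.05: Trxr1 (2.08), GstE1 (3.33) and GstD1 (2.39).

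Among genes reported in flies to respond to CncC or Keap1, 7 of 9 with a probe set were tested, 2 rose and 5 did not pass. Over all probe sets tested 2.48% passed and 1.54% rose. An unadjusted p under 0.05 in limma was found for 5 of the 7, beside 15.6% over the array. The groups did not overlap for 6, beside 21.9%, and GstD5 is counted in these 6. GstD2, GstD5 and Cyp6a2 did not exceed the controls on any wild type array. GstD5 and Cyp6a2 cleared the filter through their tim-MJD values, so no median is given for this list. GstE1, a glutathione transferase of the epsilon class, read 438, 478 and 317 in wild type and 3772, 4035 and 3255 in tim-MJD. It rose by 3.33 ± 0.09 (SE; limma, adjusted p = 0.000321) and passed in 19 of 20 alternatives, losing the call with the fluidics module as a block (0.257). GstD1, a transferase of the delta class that also acts on DDT, rose by 2.39 ± 0.25 (adjusted p = 0.0143) and passed in 11 of 20 alternatives. It lost the call without wild type 1 (0.0698), wild type 2 (0.0582), wild type 3 (0.0507) or tim-MJD 3 (0.0534). It also did so with the replicate block (0.0784), a covariate for the 3′ to 5′ difference (0.0748) or 18S (0.148), the module as a block (0.269), and without wild type 1 and 2 (0.223). GstD2 read 21.5, 27.2 and 29.8 in wild type and 210, 624 and 122 in tim-MJD, at least 2.53 log2 units higher, but its adjusted p was 0.0711. GstD5 read 13.5, 15.1 and 15.8 in wild type and 54.6, 156 and 23.8 in tim-MJD. On tim-MJD 3 it lay below the controls, so no bound is given. Its difference was 1.32 (interval -0.048 to 2.68; limma, adjusted p = 0.339). The array's probes for these transferases may also bind transcripts of closely related family members.

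None of the 3 tested cytochrome P450 genes of this list passed. Cyp6g1, which metabolises insecticides, read 1337, 1269 and 719 in wild type and 312, 79.4 and 298 in tim-MJD, a difference of -2.14 (limma, adjusted p = 0.141). Cyp6a8 gave -1.21 (adjusted p = 0.0764), with 1 tim-MJD array above the controls. Cyp6a2, a P450 that drugs such as phenobarbital induce, gave 0.45 (adjusted p = 0.361) and exceeded the controls on 2 tim-MJD arrays and no other.

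Of the partners and regulators of cnc and Keap1, 8 of the 10 listed had a probe set and were tested, 0 passed in limma and 2 reached an unadjusted p under 0.05, where the share over the array was 15.6%. The median difference was 0.22. The largest belonged to ref(2)P, the fly p62, a receptor of selective autophagy. It read 1076, 830 and 741 in wild type and 1686, 3137 and 1599 in tim-MJD, without overlap, and differed by 1.41 ± 0.26 (SE; adjusted p = 0.0677). It passed in 1 of 20 alternatives, with the dimmest 60% left out (0.0364). Sesn, the fly sestrin, gave -0.39 (adjusted p = 0.313). At the other end dj-1beta, which protects against oxidative damage, gave 0.09, and slmb, an F-box protein, gave -0.0041, near control level. The partner of CncC on DNA, maf-S, and the ligase parts Cul3 and Roc1a gave 0.21, 0.24 and 0.35. Cul3 was positive in 20 of 20 alternatives, Roc1a in 18 and maf-S in 16. These 3 were picked for naming once their values were known.

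Of the other peroxide and thiol enzymes 13 of 16 with a probe set were tested and 0 passed in limma, with 6 at an unadjusted p under 0.05 (15.6% over the array) and a median difference of 0.16. Irc, an immune-regulated catalase, read 935, 689 and 493 in wild type and 1698, 3591 and 1952 in tim-MJD. Its difference of 1.94 ± 0.32 (SE) missed the threshold (adjusted p = 0.0525) and passed in 5 of 20 alternatives. Gtpx, a peroxidase that draws on thioredoxin, gave 1.05 (adjusted p = 0.140), without overlap of the groups. Ccs, the copper chaperone of Sod1, and TrxT, a thioredoxin of the testis, were at control level on all arrays.

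Named after their values were seen, Trx2 is the thioredoxin that Trxr1 reduces, and Prx3 is a mitochondrial peroxiredoxin. Trx2 read 2022, 2074 and 1807 in wild type and 2321, 2584 and 1961 in tim-MJD, and differed by 0.44 (interval 0.22 to 0.65; limma, adjusted p = 0.0732). On the normalized scale its groups did not overlap, while the intensities as deposited did. Prx3 read 511, 488 and 393 in wild type and 307, 221 and 127 in tim-MJD, a difference of -0.94 (adjusted p = 0.156). The second reductase gene, Trxr2, read 12.2 to 14.5 on all arrays, below the controls.

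Of the genes for glutathione turnover and NADPH supply 4 of 8 had a probe set and 0 passed in limma, with 0 at an unadjusted p under 0.05 and a median difference of -0.36. Men, the cytosolic malic enzyme, gave -0.45 (adjusted p = 0.597), and its relative Men-b gave -0.61 (adjusted p = 0.526). Idh, an isocitrate dehydrogenase that makes NADPH, gave -0.26 (adjusted p = 0.697). Ggt-1, which cleaves glutathione outside the cell, gave 0.21 (adjusted p = 0.361). A second probe set of Men gave -0.58, and a second, dim one of Men-b gave 0.52, so the probe sets of Men-b disagreed.

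**Figure D4:**
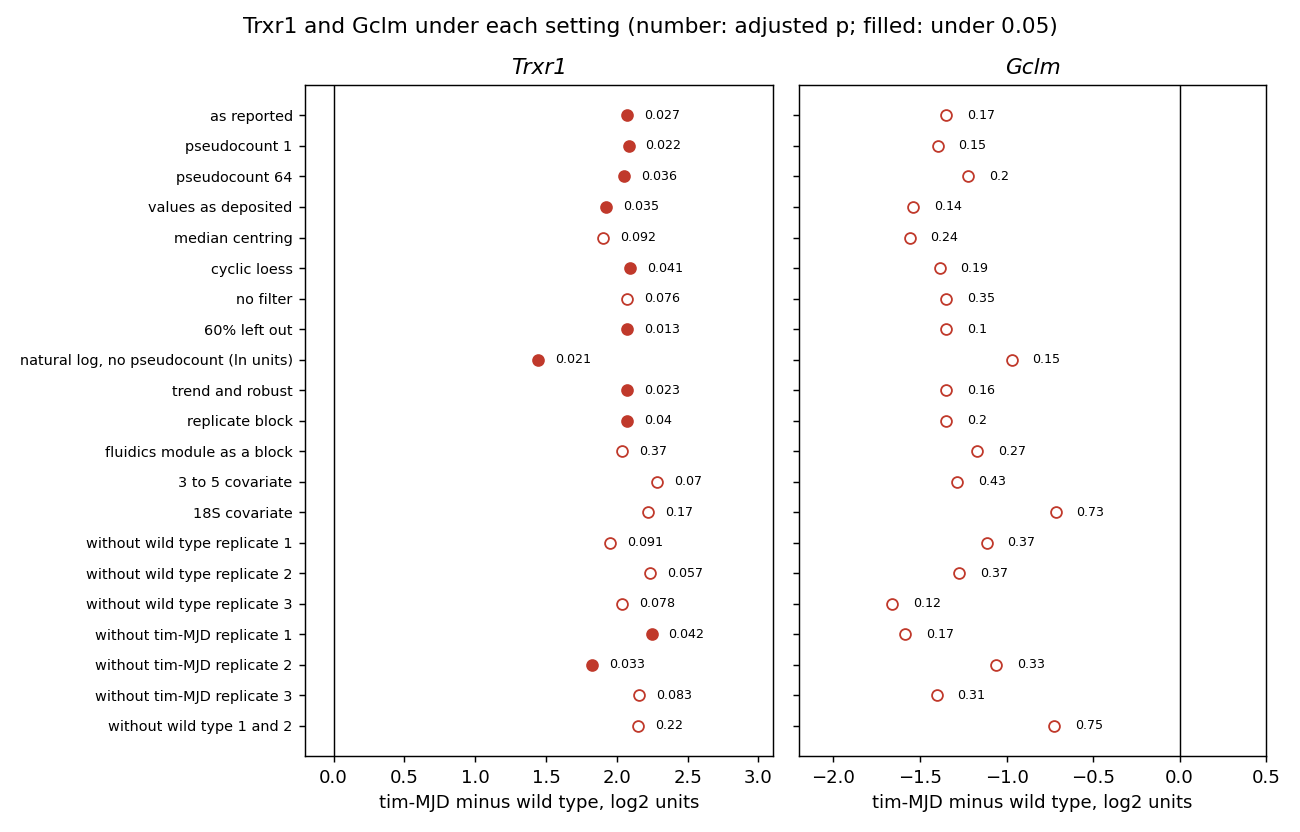
Difference between tim-MJD and wild type for Trxr1 and Gclm as reported and under each of 20 other settings, with the adjusted p beside each point. Values are in log2 units except for the natural log, which is in ln units. Trxr1 stays between 1.44 and 2.28 and passes (filled) in 10 of 20, and Gclm stays between -1.66 and -0.72 and passes in 0.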

How the data were processed

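Total RNA of fly heads was hybridised to DrosGenome1 arrays, per the file headers. The authors deposited 1 linear intensity for each probe set and array; the sources used here do not say how these were summarised or scaled. Chip type, fluidics module and scan day are read from the deposited array descriptions. Genes come from the platform annotation (12444 probe sets with 1 gene, 327 with several, 1196 with none), matched by identifier to the current RefSeq table. Coordinates are left out because no build is named.

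The 44 array controls were left out, log2 of intensity plus 16 was quantile normalized, and the lowest 40% by mean were dropped, leaving 8379 of 13966. Groups were compared with limma 3.58.1 (R 4.3.3; lmFit and eBayes, two-sided, no replicate block) with Benjamini-Hochberg adjustment over all 8379. The procedure was tested on simulated data. Bounds ("at least") are taken against the higher of a dim probe set's own value and the highest of 23 negative controls on each array.

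Members and lists were chosen with earlier results of these data known. Named were all members, pathway genes that passed, and from each list the 2 largest and the 2 smallest differences among the rest. Pathway genes named outside this rule were GstD5, Trxr2, Trx2, Prx3, maf-S, Cul3 and Roc1a. Promoter sequences were not used here, so the planned motif count was not made.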

Additional observations from a re-analysis of the deposited data

How the results depend on the processing

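The count of probe sets that passed, 208 as reported, was 122 with median centring, 102 with no filter, 387 with the dimmest 60% left out, 84 with the replicate block, 0 with the fluidics module as a block (limma, 1 residual degree of freedom; 980 at an unadjusted p under 0.05), 93 with the 3′ to 5′ covariate, 37 with the 18S covariate, 4 without wild type 1 and 2 (chosen after seeing the data), and 86 to 198 with single arrays left out. The count of members that passed was 0 with median centring, no filter, the module as a block, both covariates and without wild type 1 and 2 (limma; 1 to 3 had an unadjusted p under 0.05 there), and 0 to 1 with single arrays left out. The members without overlap numbered 5 without wild type 1 and 2, and 2 to 5 with single arrays left out, where fewer arrays separate more easily. Pathway genes that passed numbered 4 with a pseudocount of 1, the natural log, and trend and robust fits, 6 with 60% left out, 1 with the replicate block, either covariate or without wild type 1 and 2, 0 with the module as a block (limma; 14 at an unadjusted p under 0.05), and 1 to 4 with single arrays left out. Cat, Sod2 and Keap1, none of which passed anywhere, turned sign. Cat was -0.22 as deposited, -0.25 with median centring, -0.045 with cyclic loess, -0.15 with the module as a block, and -0.080 to 0.12 with single arrays left out. Sod2 was -0.036 as deposited, -0.058 with median centring, and -0.16 to 0.44 with single arrays left out. Keap1 was -0.062 with the module, -0.0074 with the 18S covariate, and -0.046 to 0.18 with single arrays left out. Among pathway genes that did not pass, dj-1beta turned to -0.11 as deposited, -0.13 with median centring, -0.019 with the module, -0.17 with the 18S covariate and -0.13 without wild type 1 and 2, slmb to 0.014 as deposited and 0.0081 with the 3′ to 5′ covariate (-0.041 to 0.023 with single arrays left out), Men to 0.13 with the 18S covariate and 0.067 without wild type 1 and 2, Idh to 0.10 with the module, maf-S to -0.020 with median centring, -0.073 with the module, -0.22 with the 18S covariate and -0.19 without wild type 1 and 2, and Roc1a to -0.10 with the 18S covariate and -0.062 without wild type 1 and 2. The causes were not tested. Same-numbered arrays correlated by 0.286, 0.050 and 0.300 in their deviations from the group means, and differently numbered ones by -0.314 to 0.112. These values do not settle whether the numbers mark pairs. The main fit took no pairs, and the replicate block is given beside it. Under the replicate block Trxr1 still passed (adjusted p = 0.0397) and GstD1 did not (0.0784).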

Other observations

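Among the 15 pathway genes whose groups did not overlap, tim-MJD 2 lay farthest from the wild type mean in 12, beside 50.6% of the 1837 such probe sets on the whole array. The 12 include GstD2 and GstD5, which did not exceed the controls on any wild type array. Of these, GstD5 cleared the filter through its tim-MJD values. The same array was farthest for Trxr1 and Gclm. It was also the array with the lowest summed fat body intensity, a sum made up mostly of Yp1 and Yp2. As given above, sex and amount of fat body cannot be told apart in this sum. Yp1 read 28281 on tim-MJD 2, and 1.007e+06 and 997079 on tim-MJD 1 and 3. Yp2 read 1019 on tim-MJD 2, and 378875 and 397724 on tim-MJD 1 and 3. Lsp2 and apolpp were lowest on tim-MJD 2 as well. This pattern was noticed in the data and not tested.

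By the same measure of likeness as for cnc and Keap1, here chosen after values were seen, the genes closest to Trxr1 over the 6 arrays were Sec31, a coat protein of vesicles leaving the endoplasmic reticulum (r = 0.993, difference 0.68), the glutathione transferase GstE6 (r = 0.993, 0.57) and the lysosomal protease CtsB (r = 0.992, 0.94). Those closest to Gclm were mtSSB (r = 0.991), colt (0.991, difference -1.75) and Cyp12a4 (0.990, -0.70), and mtSSB read above the controls on 1 array. A difference between the groups enters each of these correlations.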
